A study of Rattus norvegicus with 4 samples.

Results

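The 9 genes described here encode the contractile apparatus that marks a myofibroblast, with 1 junction protein: Acta2, Tagln, Myl9, Tpm1, Tpm2, Actn1, Cnn1, Cnn2 and Cdh11. They were chosen by gene symbol from the 23999 genes that the count matrices list, and each symbol matched 1 gene. The cells came from rat skin in a wound healing model, collected on day 4 and profiled with droplet-based single-cell RNA sequencing. Of the 4 libraries, 2 came from skin injected with purified migrasomes, the membrane vesicles that migrating cells shed from their retraction fibres. The other 2 came from skin labelled migrasomes uninjected, which does not say whether a vehicle was injected. The needle and the migrasomes therefore cannot be told apart, and the labels give no strain, sex, age or dose. The labels do not say that replicates came from separate animals, so each p-value measures the spread between libraries, which may be technical.

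A myofibroblast is a fibroblast that has built stress fibres, bundles of actin and non-muscle or smooth muscle myosin that pull on the matrix and close a wound. Acta2 encodes smooth muscle alpha-actin, the filament protein by which these cells are usually recognised, and Myl9 a regulatory light chain of myosin II whose phosphorylation switches contraction on. Tpm1 and Tpm2 encode tropomyosins, which wind along the filament and set where myosin can bind. Actn1 encodes alpha-actinin-1, which ties filaments to each other and to adhesions, and Tagln, Cnn1 and Cnn2 encode transgelin and calponins, actin-binding proteins of the same fold. Cdh11 encodes cadherin-11, which joins mesenchymal cells to each other. Smooth muscle cells and pericytes, together called mural cells, use the same genes, so the source of each UMI (unique molecular identifier, 1 captured transcript) has to be settled first.

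Serum response factor, with its actin-sensing coactivators, is known to act on many contractile genes through the CArG box, the letters CC and GG around 6 bases that are A or T. Promoter windows of 250 bases upstream of the start were at hand for 6 of the 9 genes (Acta2, Tpm1, Tpm2, Actn1, Cnn1 and Cnn2) in RefSeq's annotation of GRCr8, and the windows that held a box are shown with it in capitals. The first is that of Acta2, at chr1:241172504-241172753 on the minus strand, and the second that of Cnn2, at chr7:10370313-10370562 on the minus strand.
Acta2: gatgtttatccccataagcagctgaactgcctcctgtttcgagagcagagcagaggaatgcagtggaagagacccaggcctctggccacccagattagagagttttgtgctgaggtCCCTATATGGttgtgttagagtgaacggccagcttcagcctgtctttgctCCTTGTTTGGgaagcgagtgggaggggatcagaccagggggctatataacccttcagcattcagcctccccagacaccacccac
Cnn2: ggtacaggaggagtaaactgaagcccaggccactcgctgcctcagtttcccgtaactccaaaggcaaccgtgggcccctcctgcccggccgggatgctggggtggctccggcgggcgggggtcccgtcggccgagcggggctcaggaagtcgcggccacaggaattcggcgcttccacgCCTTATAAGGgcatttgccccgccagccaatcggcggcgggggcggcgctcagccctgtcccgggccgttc
The Cnn2 box, CCTTATAAGG, lay 71 to 62 bases upstream of the start and was the 1 exact match among the 6 windows. An exact box was found in 1.5% of 33469 windows of the same length over all genes. The Acta2 boxes each have 1 middle base that is G or C: CCCTATATGG lay 134 to 125 bases upstream and CCTTGTTTGG 84 to 75. With 1 such base allowed, exact boxes included, 8.08% of all windows and 2 of the 6 held a box. The MCAT motif CATTCC, the site of TEAD factors, was in 2 of the 6 windows (Acta2 and Tpm1) and in 12.1% of all windows, on either strand and with no overlap with the boxes shown. A match is a run of letters and says nothing of binding in these cells.

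The files hold every droplet barcode, and 33724 cells were kept: 9846 and 6074 in the injected libraries and 9085 and 8719 in the uninjected ones. The median cell held 3428.5 and 7913 UMIs in the injected libraries, against 2031 and 4979 in the uninjected ones. The library uninjected 1 stood apart: ribosomal protein genes took 17.0% of its cells' UMIs, against 7.16% to 8.61% in the other libraries. Any pair of libraries shared 14 to 29 cell barcodes, at most 0.346% of a library's cells. Classes were gated on marker genes that include none of the 9, so fibroblasts below are fibroblast-like cells by 11 collagen, proteoglycan and related genes, and mural cells are mural-like by 14 genes such as Rgs5, Mcam and Notch3. The fibroblast gate took 771 and 548 cells in the injected libraries and 322 and 592 in the uninjected ones. The mural gate took 43 and 6 cells in the injected libraries and 50 and 18 in the uninjected ones. Clusters built without the 9 genes held 99.6% of the gated fibroblasts in the 2 clusters with fibroblast markers, and 116 of the 117 mural cells in 1 cluster. A further 79 cells passed both gates and were left out of both classes.

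Levels by class are given in CPM (counts-per-million: a gene's UMIs as a share of all UMIs of the class in that library). Acta2, Tagln, Myl9, Tpm1, Tpm2 and Cnn1 each had their highest level in mural cells, in every library. Acta2 had 4726 and 2753 CPM in mural cells of the injected libraries, and 4756 and 5732 in those of the uninjected ones. In fibroblasts it had 43.3 and 33.4 CPM in the injected libraries and 71.4 and 123 in the uninjected ones, so the mural level was 46.7 to 109 times the fibroblast level of the same library. The mural and fibroblast ranges lay far apart, and the value of 2753 rests on only 6 cells. Keratinocytes, with 4.18 to 12.9 CPM, came next below fibroblasts and did not overlap them, whereas endothelial cells and skeletal muscle cells did not differ from keratinocytes beyond their spread over the libraries with at least 10 cells. The 6 skeletal muscle cells of injected 2 gave 101 CPM of Acta2. T and NK cells, mast cells, and Schwann and melanocyte cells had no Acta2 UMI in any library.

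Tagln and Myl9 followed the same order at the top. Tagln had 5837 and 3914 CPM in mural cells of the injected libraries and 6935 and 5618 in those of the uninjected ones, 42.2 to 204 times the fibroblast level. Its second place went to skeletal muscle cells (131 to 401 in the 3 libraries with at least 10 such cells), whose range overlapped that of fibroblasts at 19.1 to 164. Fibroblast and keratinocyte ranges of Tagln overlapped as well, since keratinocytes of injected 2 reached 24.8. Myl9 had 2127 and 1741 CPM in mural cells of the injected libraries and 2518 and 2088 in those of the uninjected ones, 60.8 to 90.2 times the fibroblast level, and fibroblasts at 22.9 to 41.4 stood clear of all lower classes. Cnn1, the smooth muscle calponin, had 102 and 206 CPM in mural cells of the injected libraries and 187 and 196 in those of the uninjected ones. In fibroblasts it had 2.86 to 5.51 CPM, a range apart from the mural one, and in keratinocytes at most 0.957.

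The tropomyosins and alpha-actinin-1 were spread over more classes. Tpm1 had 2205 and 1929 CPM in mural cells of the injected libraries and 2199 and 2104 in those of the uninjected ones. Keratinocytes followed at 575 to 786 CPM, clear of fibroblasts at 199 to 371. Fibroblast Tpm1 did not differ beyond its spread from that of skeletal muscle cells. Tpm2 was highest in mural cells (3422 to 4269 CPM), then in skeletal muscle cells (520 to 941 with at least 10 cells), and keratinocytes at 290 to 491 overlapped fibroblasts at 156 to 359. Actn1 was the 1 member whose highest mean lay in keratinocytes, at 566 to 914 CPM, a range that overlapped mural cells at 420 to 594 in the libraries with at least 10 of them. Fibroblasts ranked low for Actn1, at 80.3 to 196 CPM, below endothelial cells at 283 to 330.

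Cnn2 and Cdh11 departed from this pattern. Cnn2, a calponin found in many cell types, was near the limit of detection everywhere: fibroblasts had 1.51 to 5.39 CPM, mural cells 0 to 5.17 and dendritic cells up to 17.9, and no 2 neighbouring classes differed beyond their spread. Cdh11 was a fibroblast gene. It had 36.3 and 35.7 CPM in fibroblasts of the injected libraries and 90.7 and 63.1 in those of the uninjected ones. Mural cells gave 2 UMIs in injected 1, a ratio of 0.122 to fibroblasts with an exact 95% interval of 0.0148 to 0.444, and 0 in the other libraries. Taking 3 counts per library as the limit that a count of 0 allows, mural Cdh11 was at least 11.7-fold lower than that of fibroblasts in uninjected 1 and at least 4.07-fold lower in uninjected 2. The 53403 UMIs of the 6 mural cells of injected 2 were too few to set such a bound. These intervals and limits cover counting error only.

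**Figure D1:**
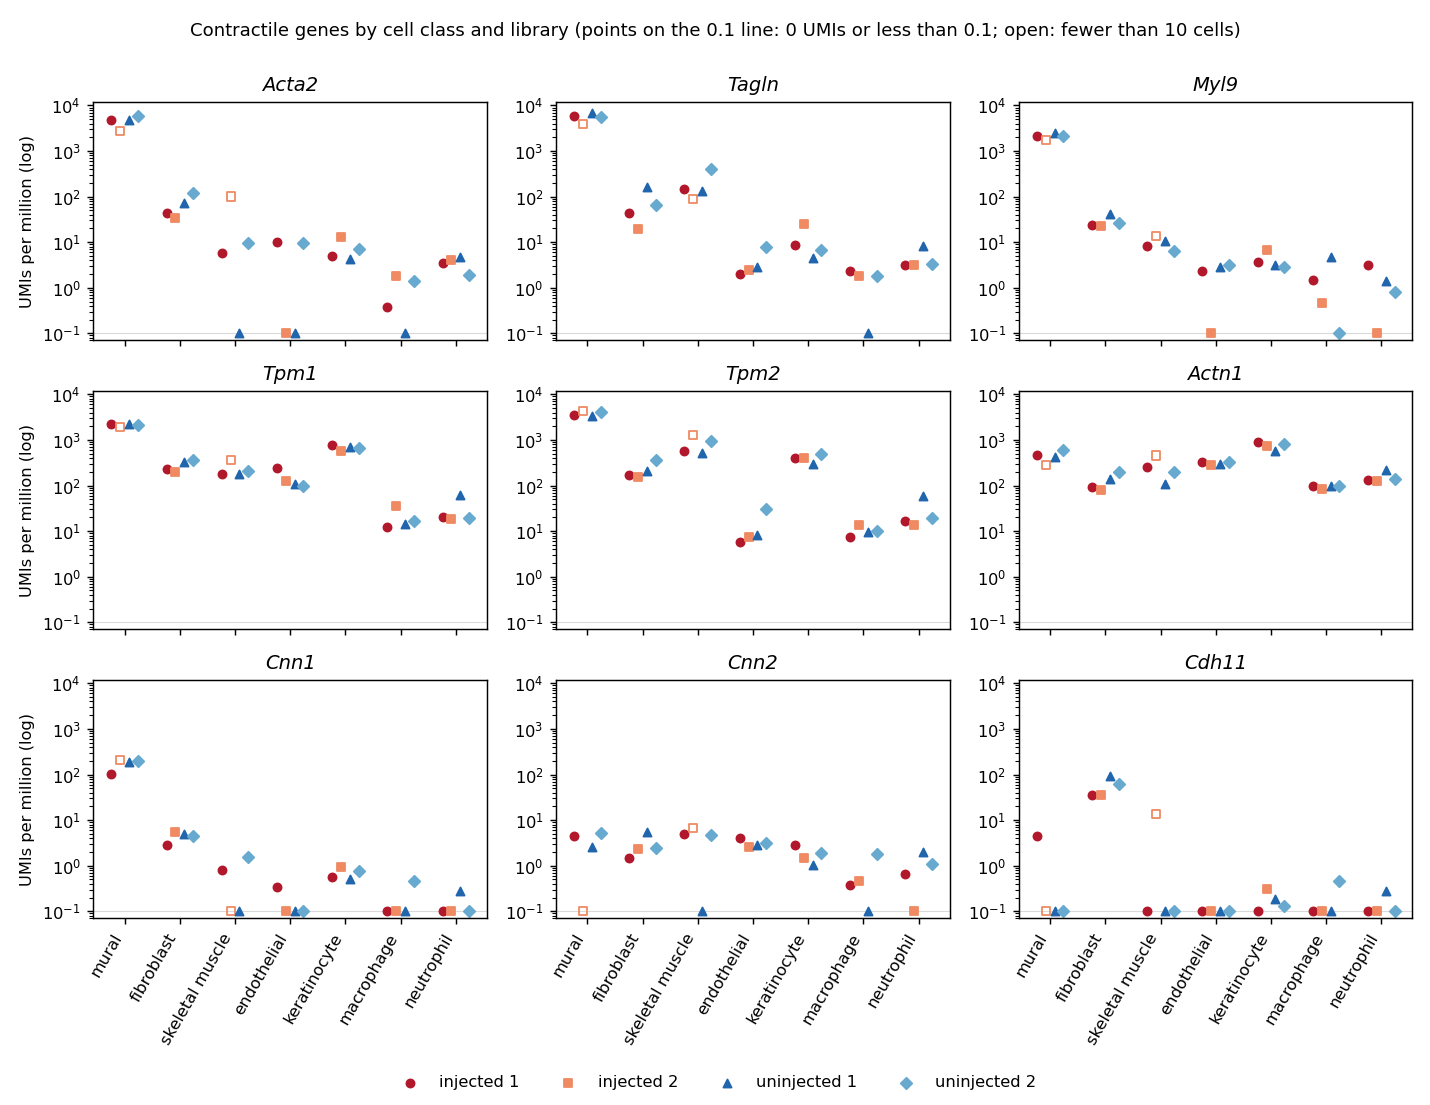
Level of each of the 9 genes in CPM of the class (axis: UMIs scaled to the class total, log scale), by cell class and library. Each point is 1 library, points on the line at 0.1 had 0 UMIs or a level under 0.1, and open points rest on fewer than 10 cells. Acta2, Tagln, Myl9, Tpm1, Tpm2 and Cnn1 were highest in mural cells, Actn1 had its highest mean in keratinocytes, and Cdh11 was highest in fibroblasts.

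The difference between mural cells and fibroblasts was tested over the 3 libraries with at least 10 mural cells (injected 1, uninjected 1 and uninjected 2), with the library as a block. By edgeR's quasi-likelihood test with Benjamini-Hochberg adjustment, 7 of the 9 genes were higher in mural cells, where 10.9% of the 10400 genes tested were higher and 25.2% differed in either direction. The log2 differences (mural over fibroblast) were 6.01 for Acta2, 6.20 for Tagln, 6.14 for Myl9, 5.19 for Cnn1, 3.89 for Tpm2, 2.72 for Tpm1 and 1.73 for Actn1, with standard errors of 0.22 to 0.33. The edgeR adjusted p was largest for Actn1, at 1.6e-07. Cdh11 was lower in mural cells (edgeR adjusted p = 8.6e-08), where 14.3% of the genes tested were lower. Cnn2 differed by 0.33 with a standard error of 0.92 (edgeR adjusted p = 0.841), so a difference was not detectable at this depth. The same 8 genes passed when DESeq2 was used and when each of the 3 libraries was left out in turn.

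The other genes of the apparatus, listed by pathway, split between the classes. Of the actomyosin and actin filament list, 19 of 21 genes were tested, 12 were higher in mural cells and 1 was lower, with a median log2 difference of 1.09, beside −0.11 over all genes. Smooth muscle myosin Myh11 was higher by 7.21 and the myosin kinase Mylk by 4.50, while the non-muscle myosin Myh10 was lower, at −1.74. Of the focal adhesion and stress fibre list, 10 of 19 were higher and 4 lower; the intermediate filament gene Des was higher by 8.30, and paxillin (Pxn) was lower, at −1.47. Of 8 cadherins and catenins tested, 3 were higher and 0 lower, with Cdh6 at 4.63 and Cdh13 at 2.91. The myofibroblast matrix list went the other way: 12 of 13 genes were lower in mural cells and 0 were higher, with a median of −3.87, Postn at −7.94 and Cthrc1 at −9.32. Col1a1, Col3a1 and Col5a1 of that list were also fibroblast gate markers, so the gate itself set their direction. Genes of this paragraph were picked as examples after their values were seen, and each one named passed the test.

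In fibroblasts, all 9 genes had a log2 change below 0 in the injected libraries relative to the uninjected ones, and none passed the test. Values here are CPM after TMM scaling, the scale of the test, and so differ slightly from the class levels. Acta2 had 44.5 and 33.2 CPM in fibroblasts of the injected libraries, against 75.5 and 114 CPM in those of the uninjected ones. Both injected libraries lay below both uninjected ones, and the log2 change was −1.29 with a standard error of 0.29 (edgeR adjusted p = 0.341, n = 2 libraries per group). Tagln had 44.8 and 19.1 CPM in the injected libraries and 174 and 59.8 CPM in the uninjected ones. The groups did not overlap, but the uninjected libraries lay far from each other, and the change of −1.86 had a standard error of 0.58 (edgeR adjusted p = 0.457). Cdh11 had 37.4 and 35.5 CPM in the injected libraries and 96.0 and 58.6 CPM in the uninjected ones. The injected libraries were alike and below both uninjected ones, with a change of −1.08 (SE 0.29, edgeR adjusted p = 0.395).

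Actn1 had 95 and 79.9 CPM in fibroblasts of the injected libraries and 149 and 182 CPM in those of the uninjected ones, without overlap, a change of −0.92 (SE 0.25, edgeR adjusted p = 0.395). Tpm1 had 242 and 198 CPM in the injected libraries and 347 and 344 CPM in the uninjected ones, a change of −0.65 (SE 0.26). Tpm2 had 174 and 155 CPM in the injected libraries and 218 and 333 CPM in the uninjected ones, a change of −0.75 (SE 0.29). Neither tropomyosin overlapped between the groups, and their edgeR adjusted p-values were 0.511 and 0.502. Myl9 had 24.2 and 22.8 CPM in the injected libraries and 43.8 and 24.0 CPM in the uninjected ones. Here 3 of the 4 libraries were alike and uninjected 1 alone was high. In uninjected 1, 3 fibroblasts that clustered with the mural cells carried 42.6% of the Myl9 UMIs, and in injected 1, 3 such cells carried 24.9%. In the larger fibroblast cluster alone, with no TMM scaling, Myl9 had 17.8 and 23.2 CPM (injected) and 25.4 and 26.1 CPM (uninjected). Cnn1 (2.94 and 5.48 CPM injected, 5.11 and 4.09 CPM uninjected) and Cnn2 (1.55 and 2.36 CPM injected, 5.70 and 2.24 CPM uninjected) overlapped between the groups at very low levels.

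**Figure D2:**
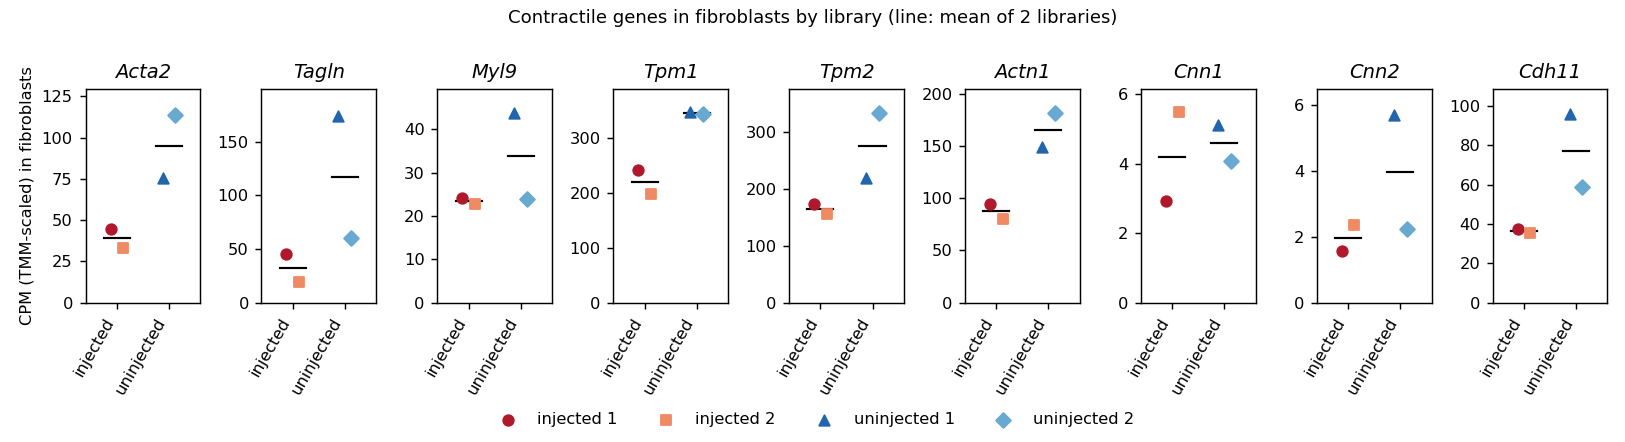
CPM after TMM scaling of each gene in fibroblasts, 1 panel per gene with its own axis from 0. Each point is 1 library and the line is the mean of 2 libraries. Both injected libraries lie below both uninjected ones for Acta2, Tagln, Tpm1, Tpm2, Actn1 and Cdh11, and the groups overlap for Myl9, Cnn1 and Cnn2. In uninjected 1, 3 fibroblasts that clustered with the mural cells carried 47.7% of the Acta2, 38.7% of the Tagln and 42.6% of the Myl9 UMIs.

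Read against all genes, 0 of the 9 passed where 0.0454% of the 13224 genes tested in fibroblasts did. The 9 of 9 below 0 compare with 50.2% of all genes, and the median change of the 9 was −0.92, beside −0.00 over all genes. The 9 were chosen with earlier results of these data known, and several vary together across cells, so they do not count as 9 independent genes. Without injected 1, without uninjected 1 and by clusters, 8 of the 9 were below 0. For 6 of the 9, both injected libraries lay below both uninjected ones, a pattern that 19.7% of all genes showed. The same 6 had an unadjusted edgeR p under 0.05, where 9.59% of all genes did. That count was 3 without injected 2, 4 without injected 1, 5 without uninjected 1, 7 without uninjected 2, 4 with a replicate block and 2 of the 7 testable in cells with no mural marker. With 2 libraries a group the calls moved with the tool and with single libraries. DESeq2 called 157 genes in place of 6, among them Acta2 (adjusted p = 0.0267) and Tagln (adjusted p = 0.0318). Without uninjected 1, the library with high ribosomal counts, edgeR called 90 genes and Acta2 passed (log2 change −1.55, adjusted p = 0.0335), while Tagln did not. Without uninjected 2, edgeR called 763 genes, and Tagln (−2.44, adjusted p = 0.00858) and Cdh11 (−1.40, adjusted p = 0.00715) passed, while Acta2 did not. Without injected 1 and without injected 2, edgeR called 0 and 25 genes, with none of the 9 among them. Without the filter on low counts, 518 genes were called, among them Acta2, Tagln and Cdh11.

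Mural and free RNA values were measured beside this comparison. The 14 mural marker genes together had 2.37 and 1.94 UMIs per 10000 in fibroblasts of the injected libraries and 1.73 and 2.00 in those of the uninjected ones, and the groups overlapped. One by one, 4 of the 14 markers were higher in both injected libraries, 1 was lower and 9 overlapped. Over all genes tested in fibroblasts, 19.7% were lower in both injected libraries after TMM scaling. No such share was at hand for the higher direction, so these marker counts are descriptions. The 4 higher ones were Kcnj8 (25.7 and 15.8 CPM injected, 5.20 and 8.44 uninjected), Abcc9 (21.1 and 25.1 CPM injected, 13.9 and 7.94 uninjected), Rgs4 (21.9 and 14.0 CPM injected, 13.4 and 11.0 uninjected) and Steap4 (55.0 and 66.7 CPM injected, 37.4 and 46.3 uninjected). Cspg4 was lower, at 4.03 and 3.56 CPM in the injected libraries and 7.25 and 6.82 in the uninjected ones. The highest marker value was that of Ndufa4l2 in uninjected 2, at 84.2 CPM, whereas Rgs5, Notch3, Higd1b and Trpc6 had at most 1.49 CPM in any library. In mural cells, Steap4 had 51.1 and 150 CPM in the injected libraries and 28.5 and 129 in the uninjected ones. Its fibroblast level was thus the higher in injected 1 and uninjected 1, and its UMIs are not particular to mural cells. The part of mural transcripts in the fibroblast values was not tested. Among the few fibroblasts with no UMI of any mural marker (100 and 113 cells injected, 98 and 111 uninjected), the log2 change was −0.95 for Acta2 and −1.19 for Cdh11, but −0.74 for Tagln and −0.00 for Myl9, and 0 genes were called by edgeR, with 718 at an unadjusted p under 0.05. In these cells, with no TMM scaling, Acta2 had 84.1 and 40.8 CPM in the injected libraries and 42.1 and 203 in the uninjected ones, and Tagln had 74.7 and 17.2 in the injected libraries and 85.8 and 63.4 in the uninjected ones. Both genes overlapped between the groups there, and the Acta2 value of uninjected 2 alone stood above the rest. These cells were also shallower, at a median of 11199.5 and 12928 UMIs in the injected libraries and 8940.5 and 24081 in the uninjected ones. Fibroblasts with a mural marker UMI had 23634 and 23110 (injected) and 16836.5 and 28011 (uninjected). When the cells that passed both gates were counted as fibroblasts, Acta2 was at −1.01 and Tagln at −1.42. In fibroblasts without a UMI of 5 cell cycle genes, Acta2 was at −1.07 and Cdh11 at −1.31. Free RNA, from the profile of empty droplets, could supply at most 1.65% of fibroblast UMIs in any library, at most 1.07% of Acta2's, 1.80% of Tagln's and 6.17% of Actn1's. How a read shared between near-identical actin genes was counted is not given in the sources used here.

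The share of fibroblasts with a UMI was lower in both injected libraries for 8 of the 9 genes, all but Cnn1, where 21.6% of the 13224 tested genes showed that pattern. In the thinning drawn for all genes it held for 7 of the 9, since Cnn2 overlapped. Cells were thinned to 5000 UMIs, which left out 46 and 57 shallower fibroblasts in the injected libraries and 35 and 30 in the uninjected ones. Acta2 was then seen in 10.3% and 9.16% of fibroblasts in the injected libraries, against 11.8% and 26.2% in the uninjected ones. Unthinned, at median depths of 22568 and 21903 UMIs (injected) and 15326.5 and 27299.5 UMIs (uninjected), the shares were 23.7% and 23.2% in the injected libraries and 20.5% and 51.2% in the uninjected ones. Uninjected 2 alone stood out, and the interval of uninjected 1 (up to 16.1%) overlapped those of both injected libraries. Keratinocytes, an epithelial class not known for smooth muscle actin, showed Acta2 in 1.61% and 2.35% of thinned cells in the injected libraries and 2.09% and 1.95% in the uninjected ones, at median depths of 12495 and 13404 (injected) and 10799 and 16200.5 UMIs (uninjected). Unthinned, the keratinocyte shares were 3.50% and 5.04% (injected) and 3.73% and 4.42% (uninjected). The exact two-sided permutation test of the fibroblast shares gave p = 0.333, the smallest that 2 libraries against 2 allow. The difference of the means, −9.25 percentage points, was −2.09 without uninjected 2 and −16.4 without uninjected 1.

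Tagln was seen in 4.69% and 5.09% of thinned fibroblasts in the injected libraries, against 11.8% and 12.3% in the uninjected ones, and unthinned in 11.5% and 10.6% (injected) and 17.7% and 27.5% (uninjected). The thinned keratinocyte shares were 2.92% and 4.66% (injected) and 1.54% and 1.61% (uninjected), so in both injected libraries the counting intervals of fibroblasts and keratinocytes overlapped, and they did not in the uninjected ones. Cdh11 was seen in 14.1% of thinned fibroblasts in each injected library, against 29.3% and 23.1% in the uninjected ones. Unthinned, Cdh11 was seen in 37.7% and 39.1% of fibroblasts in the injected libraries and 54.0% and 61.1% in the uninjected ones. Keratinocytes had it in at most 0.119% of thinned cells in any library. Actn1 was seen in 29.9% of thinned fibroblasts in each injected library, against 45.6% and 51.1% in the uninjected ones. For Tpm1 the shares were 57.2% and 53.4% in the injected libraries and 65.5% and 74.6% in the uninjected ones. The counting intervals of injected 1 (53.6% to 60.8%) and uninjected 1 (59.8% to 70.8%) overlapped. For Tpm2 the shares were 29.1% and 31.8% in the injected libraries and 38.3% and 58.5% in the uninjected ones. Here the intervals of injected 2 (27.8% to 36.0%) and uninjected 1 (32.9% to 44.1%) overlapped. Keratinocytes express Actn1, Tpm1 and Tpm2 and give no background share for them. Myl9 shares ran from 7.13% to 7.31% in the injected libraries and from 9.76% to 10.1% in the uninjected ones, with counting intervals that overlapped in all 4 libraries.

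**Figure D3:**
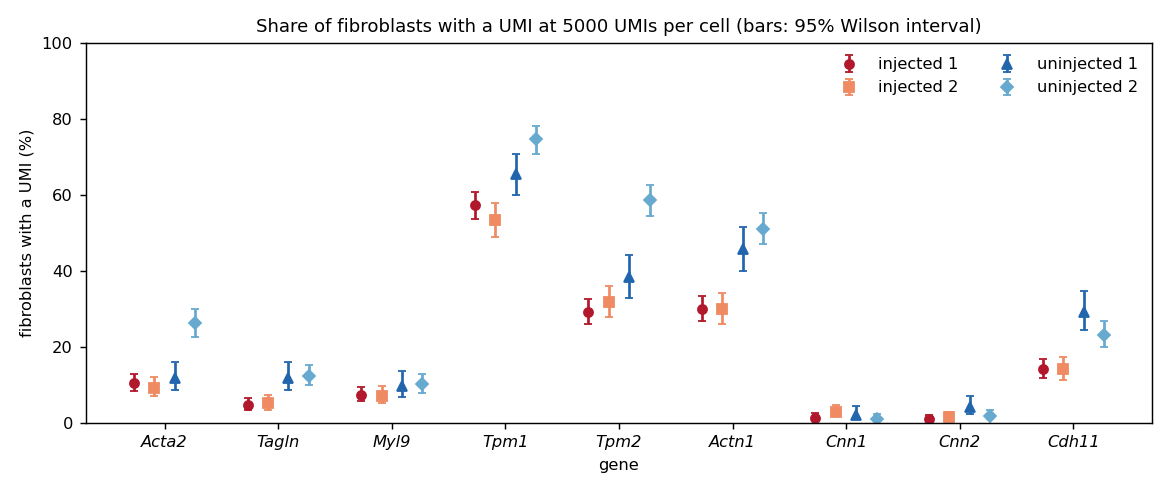
Share of fibroblasts with at least 1 UMI of each gene after thinning each cell to 5000 UMIs, in percent. Each point is 1 library and the bar is its 95% Wilson interval, which covers counting error only. Tpm1, Tpm2, Actn1, Tagln and Cdh11 were seen in a smaller share in both injected libraries. The interval of uninjected 1 overlapped that of injected 1 for Tpm1 and that of injected 2 for Tpm2. The Acta2 share was high in uninjected 2 alone.

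Acta2, Tagln and Myl9 transcripts were concentrated in few fibroblasts. The 5% of fibroblasts with the most Acta2 UMIs held 70.8% and 65.0% of that gene's UMIs in the injected libraries, and 79.9% and 45.4% in the uninjected ones. The matching shares for Tagln were 92.8% and 86.3% in the injected libraries and 92.1% and 66.6% in the uninjected ones. Those for Myl9 were 71.3% and 54.1% in the injected libraries and 74.4% and 41.2% in the uninjected ones. By contrast, the top 5% for Tpm1 held 21.4% and 22.4% in the injected libraries and 24.3% and 18.6% in the uninjected ones. Such a share depends in part on how many UMIs a gene has. In fibroblasts of injected 1, Acta2 had 773, Tagln 779, Myl9 421 and Tpm1 4206. With the top 5% for each gene left out, and with no TMM scaling, Acta2 stood at 14.5 and 13.5 CPM in the injected libraries, against 16.9 and 78.6 in the uninjected ones. The groups remained apart in that order, with uninjected 1 now near the injected libraries and uninjected 2 far above. With the same step, Tagln stood at 3.56 and 3.23 CPM in the injected libraries, against 18.2 and 25.0 in the uninjected ones.

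Fibroblasts with at least 5 Acta2 UMIs per 10000 numbered 13 and 5 in the injected libraries and 9 and 45 in the uninjected ones. By the same limit, Tagln-high fibroblasts numbered 14 and 3 in the injected libraries and 18 and 13 in the uninjected ones. Cells high for both numbered 11 and 1 in the injected libraries and 8 and 6 in the uninjected ones. In uninjected 1 those 8 cells held 64.8% of the fibroblasts' Acta2 UMIs and 64.7% of their Tagln UMIs, whereas in uninjected 2 the 6 cells held 10.6% and 28.6%. Mural markers had a median of 2.72 and 1.33 UMIs per 10000 in Acta2-high fibroblasts of the injected libraries and 2.63 and 0.573 in those of the uninjected ones. In the remaining fibroblasts they had 1.73 and 1.16 in the injected libraries and 0.818 and 1.24 in the uninjected ones. Acta2-high cells of uninjected 1 thus carried more UMIs of the mural marker genes than the cells around them, and those of uninjected 2 fewer. Some of these marker genes, such as Steap4, are not particular to mural cells. The part of mural transcripts in either was not tested.

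Across single fibroblasts, Pearson's r between Acta2 and Tagln was 0.69 and 0.45 in the injected libraries and 0.68 and 0.40 in the uninjected ones, over 771 and 548 (injected) and 322 and 592 (uninjected) cells that share a library. For Acta2 and Tpm2 it was 0.55 and 0.37 in the injected libraries and 0.48 and 0.50 in the uninjected ones, while Cnn2 had an r of −0.02 to 0.01 with Acta2 in every library. These are descriptions of sparse counts with no test.

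A small cluster (22), with Crabp1, Mmp2 and Eln among its leading genes, held 8 and 16 fibroblasts of the injected libraries and 31 and 31 of the uninjected ones. It had 0 Acta2 UMIs in 3 of the 4 libraries, of 88944 and 229135 UMIs in all in the injected libraries and 336546 in uninjected 1, and 11.7 CPM in uninjected 2, and 0 Tagln UMIs in 3 and 8.73 CPM in injected 2. Its Cdh11 level was at most 4.67 CPM and its Tpm2 level at most 14.0, while fibroblasts of the large cluster (12) had (again with no TMM scaling) 158 and 159 CPM of Tpm2 in the injected libraries and 176 and 368 in the uninjected ones. In the large cluster alone, Acta2 had 35.1 and 34 CPM in the injected libraries and 40.0 and 126 in the uninjected ones. The value of 40.0 in uninjected 1 compares with 71.4 over all its gated fibroblasts, since 3 of its gated fibroblasts lay in the cluster (19) that held 116 of the 117 mural cells and carried 47.7% of its fibroblast Acta2 UMIs and 38.7% of its Tagln UMIs. In injected 1, 3 such cells carried 19.4% of the Acta2 UMIs and 35.8% of the Tagln UMIs, and the second library of each group had 0 such cells. Such cells also carried 42.6% of the Myl9, 61.5% of the Cnn1 and 20.5% of the Tpm2 UMIs of fibroblasts in uninjected 1. The matching shares in injected 1 were 24.9%, 31.4% and 7.13%. With the gated fibroblasts of the 2 fibroblast clusters alone, the log2 change was −1.16 for Acta2 (SE 0.45, edgeR adjusted p = 0.496) and −1.79 for Tagln (SE 0.36, edgeR adjusted p = 0.259), and 8 of the 9 genes were below 0. Without the cells outside these clusters, Acta2 in uninjected 1 was near the injected libraries. Tagln in the large cluster had 28.2 and 19.4 CPM in the injected libraries and 108 and 66.2 in the uninjected ones, without overlap. The cells that passed both gates lay between the classes, with 372 and 580 CPM of Acta2 in the injected libraries and 219 and 492 in the uninjected ones, and the groups overlapped. Dividing fibroblasts, those with a UMI of Mki67, Top2a, Cenpf, Ccnb1 or Cdk1, had 42.8 and 35.6 CPM of Acta2 in the injected libraries and 60.2 and 136 in the uninjected ones. The remaining fibroblasts had 44.1 and 29.6 in the injected libraries and 90.5 and 71.6 in the uninjected ones, so uninjected 2 was above uninjected 1 in dividing cells and below it in the rest. Dividing cells were deeper, with medians of 28120 and 26272.5 UMIs (injected) and 21937 and 31587 (uninjected). The rest had 17408.5 and 18383.5 (injected) and 11157 and 19510 (uninjected). The uninjected 1 values include its 3 cells of cluster 19, whose part in this order was not tested.

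**Figure D4:**
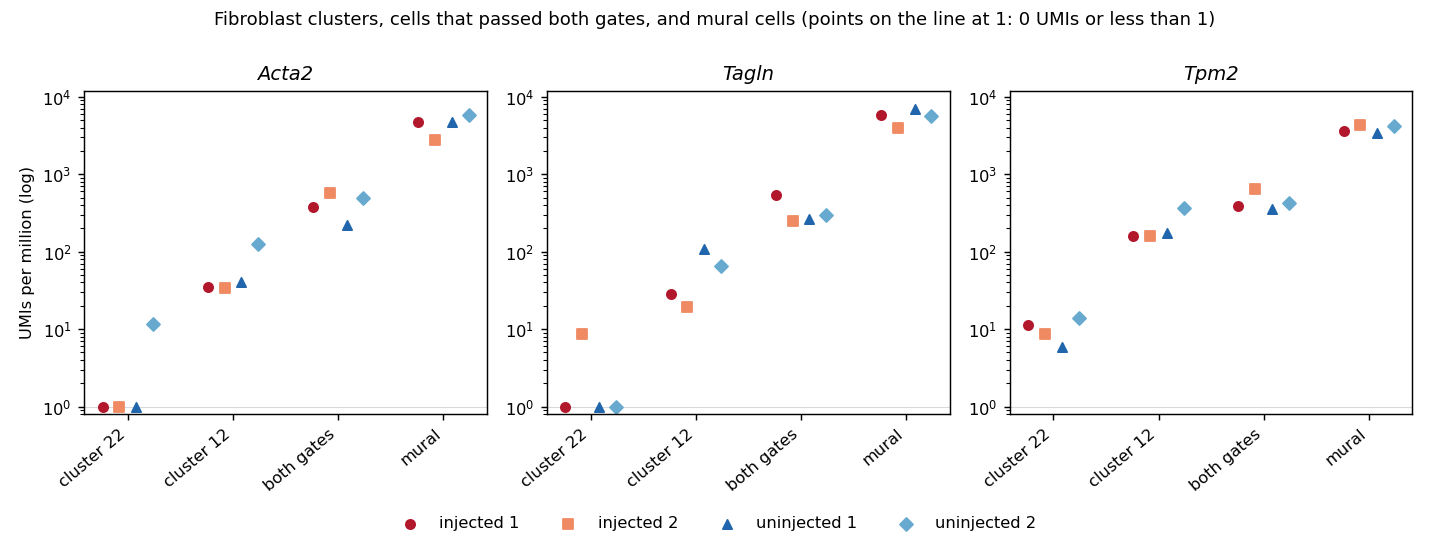
Acta2, Tagln and Tpm2 in CPM of the subset on a log axis, in the fibroblasts of the small cluster (22) and the large cluster (12), in cells that passed both the fibroblast and the mural gate, and in mural cells. Each point is 1 library and points on the line at 1 had 0 UMIs; levels step up from left to right within each library in all 3 genes, and Acta2 in cells that passed both gates ran from 219 to 580.

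Beyond the 9 genes, fibroblasts showed no called difference between injected and uninjected libraries in any of the pathway lists given here. Of 18 actomyosin genes tested, 13 had a change below 0 and 5 above, with a median of −0.24. Myl6, an essential myosin light chain, was at −0.73 (700 and 821 CPM injected, 1573 and 952 CPM uninjected). The cytoplasmic actin Actg1 was at −1.20, at low levels (12.8 and 9.10 CPM injected, 31.3 and 19.8 CPM uninjected). The myosin kinase Mylk was at −0.69 and overlapped between the groups (14.9 and 7.42 CPM injected, 23.2 and 13.7 CPM uninjected). Of 19 focal adhesion genes, 12 were below 0, with a median of −0.15, Itga11 at 0.52, Csrp2 at −0.51 and Pdlim5 at 0.48. Of 9 cadherins and catenins, 6 were below 0; Cdh13 was at −1.35, Cdh2 (N-cadherin) at 1.07 and Jup at −0.35. Of 14 matrix genes, 7 were below 0 and 7 above, with a median of 0.03, and Col1a1, Cthrc1 and Postn stood at 0.47, 0.46 and 0.45. The edgeR adjusted p-values of all genes named here lay between 0.388 and 0.889.

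In keratinocytes, the largest class, most of the genes had a change above 0. Of the 8 genes tested there, 2 had a change below 0, where 49.3% of all genes did, with a median log2 change of 0.25, and edgeR called 0 of 14454 genes (0%), with 670 at an unadjusted p under 0.05 and 39 called by DESeq2. That median was 0.053 without injected 2, 0.11 without uninjected 1, 0.30 without uninjected 2 and 0.45 without injected 1, where 4 of 9 genes had a change below 0. Without uninjected 2, edgeR called 714 genes, none of the 9 among them. Tagln was the 1 gene whose groups did not overlap, at 8.33 and 23.6 CPM in the injected libraries and 5.10 and 6.43 CPM in the uninjected ones (log2 change 1.47, SE 0.50, edgeR adjusted p = 0.813); 19.0% of all genes had both injected libraries above both uninjected ones. Free RNA could supply up to 35.7% of keratinocyte Tagln in a library. Tpm1 had 736 and 548 CPM in the injected libraries and 787 and 638 CPM in the uninjected ones, Tpm2 had 371 and 386 CPM in the injected libraries and 333 and 480 CPM in the uninjected ones, and Actn1 had 855 and 699 CPM in the injected libraries and 650 and 798 CPM in the uninjected ones. These 3 overlapped between the groups, with changes of −0.15, −0.10 and 0.10.

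Whether fibroblasts and keratinocytes differed in their change was tested in 1 model over both classes. Fibroblast change minus keratinocyte change was below 0 for all 9 genes, where 51.2% of 15207 genes were, and 0 genes passed edgeR's test (0%), with 1053 at an unadjusted p under 0.05 and 97 called by DESeq2. For Cdh11 the keratinocyte side rests on 30 UMIs in all, too few for the test within keratinocytes. With a library left out, the difference ran from −1.90 to 0.70 for Cdh11 and from −0.61 to 0.12 for Cnn1. The difference was −1.04 for Actn1 (SE 0.20, edgeR adjusted p = 0.187), −1.72 for Acta2 (SE 0.47, edgeR adjusted p = 0.383), −3.07 for Tagln (SE 0.85, edgeR adjusted p = 0.397) and −0.66 for Tpm2 (SE 0.19, edgeR adjusted p = 0.427). In all, 6 of the 9 had an unadjusted p under 0.05, where 6.92% of all genes did. DESeq2 called Actn1 (adjusted p = 0.00416). Single libraries moved the calls: without injected 1, edgeR called 147 genes with Acta2, Tagln and Myl9 among them, and without injected 2 it called 259 with Tagln and Actn1. Without uninjected 1 and without uninjected 2 it called 1 and 0 genes, and none of the 9.

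**Figure D5:**
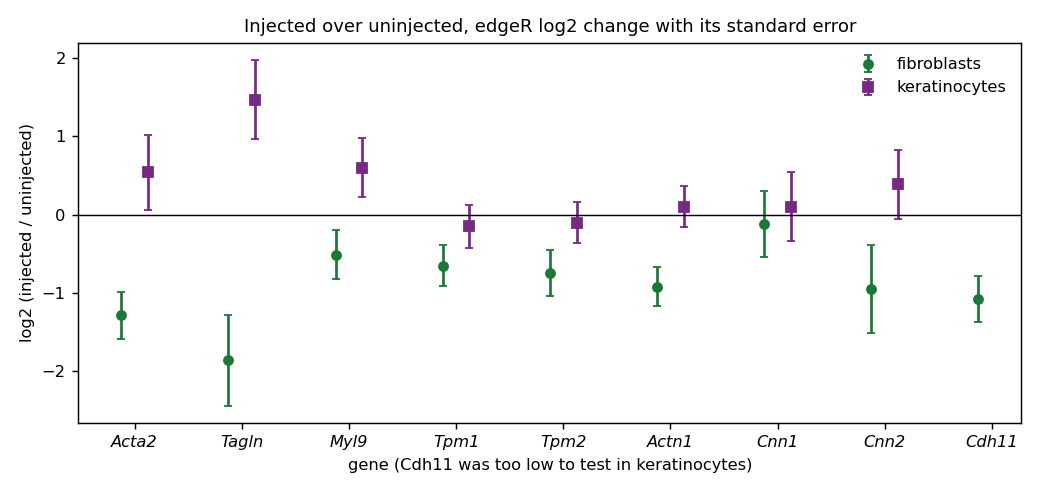
Log2 change, injected over uninjected, of each gene in fibroblasts and in keratinocytes, with its edgeR standard error as the bar. All 9 fibroblast values lie below 0, none past an adjusted p of 0.05, and the keratinocyte values run from −0.15 for Tpm1 to 1.47 for Tagln.

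In the immune classes few of the genes could be tested. Macrophages had 3 testable members, 0 of them called, where edgeR called 1 of 8891 genes (0.0112%), or 207 without uninjected 2 and 26 without uninjected 1. Actn1 had 107 and 86.6 CPM in the injected libraries and 95.6 and 91.4 CPM in the uninjected ones, and Tpm1 and Tpm2 overlapped between the groups as well, where 41.1% of all genes did not. Neutrophils had 5 testable members, 0 of them called, where edgeR called 0 of 7603 genes (0%), with 637 at an unadjusted p under 0.05 and 22 called by DESeq2. In neutrophils both injected libraries lay below both uninjected ones for Tpm1, Tpm2, Actn1 and Tagln, a pattern of 21.9% of all genes. Without uninjected 2, edgeR called 1689 genes, among them Tpm1 (−1.33, adjusted p = 0.0027) and Tpm2 (−1.61, adjusted p = 0.000243), and without uninjected 1 it called 270, none of the 9 among them. Tpm2 had 17.8 and 13.9 CPM in the injected libraries and 51.8 and 21.1 CPM in the uninjected ones. Free RNA could supply 66.0% to 100% of neutrophil Tpm2 and up to 14.1% of all neutrophil UMIs in uninjected 1, against at most 4.56% in the other libraries. Its part in the neutrophil values was not tested.

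Mural cells were too few for a test of their own genes between the groups, but their number could be set beside that of fibroblasts. They made up 5.28% and 1.08% of mural cells and fibroblasts together in the injected libraries, against 13.4% and 2.95% in the uninjected ones. The 95% Wilson intervals were 3.95% to 7.04% and 0.497% to 2.34% in the injected libraries and 10.3% to 17.3% and 1.87% to 4.62% in the uninjected ones. The groups overlapped, the first replicate of each was high, and the exact two-sided permutation test gave p = 0.667. Without uninjected 1 the difference of the means, injected minus uninjected, was 0.232 percentage points in place of −5.01. With these shares, the number of mural cells in the tissue and the yield of such cells on digestion cannot be told apart.

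Among 8096 genes, those most like the mean of the 9 over 25 sums of class and library (8 classes with at least 50 cells) were Ndufa4l2, Crispld2, Palm2, Plac9, Igfbp5, AC134204.1, Procr and Cald1, with Pearson's r of 0.95 for Ndufa4l2 and 0.92 for Cald1. Ndufa4l2 was a mural gate marker and Cald1 belongs to the actomyosin list. Of the 9, Acta2 (0.96) and Tagln (0.94) were closest to the mean, and Actn1 (0.54), Cdh11 (0.55) and Cnn2 (−0.04) farthest from it. Mural cells entered these sums only through their 50 cells in uninjected 1, and each of the 9 is part of the mean it was set against. The sums of 1 library share its depth and free RNA, so these values are descriptions.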

How the data were processed

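Per the file headers, the deposited values are raw UMI counts per gene and droplet barcode, empty droplets included, written by Cell Ranger 7.2.0, whereas version 5.0.1 stands in the submitters' processing notes. No source used here gives the rat assembly or gene annotation that reads were aligned to. Cells were called against an empty-droplet profile (false discovery rate 0.01) and kept with at least 250 genes and at most 20% mitochondrial UMIs; 2747 barcodes scored as doublets were removed (scanpy 1.11.5, Python 3.11.15). Classes were gated on the summed share and number of marker genes, with thresholds set after seeing the data; the fibroblast gate took 100 UMIs per 10000 and 4 markers, the mural gate 10 per 10000 and 3 markers. UMI counts were summed per class and library, and tested with edgeR 4.0.16 (TMM, quasi-likelihood, Benjamini-Hochberg over all genes, threshold 0.05) in R 4.3.3, for classes with at least 50 cells in each library. Mural cells were tested in the 3 libraries with at least 10 of them. DESeq2 1.42.0, no count filter, each library left out, a replicate block, clusters in place of gates and doublets kept were alternatives. In simulated fibroblast counts with 2 libraries a group, edgeR called 22.0% of genes set to a log2 change of −1, 26.0% of those set to 1, 90.0% of those set to −2, and 4 of 12809 unchanged genes. Promoter windows came from RefSeq (GRCr8); Tagln, Myl9 and Cdh11 had none. The 9 genes and the lists were chosen with earlier results of these data known, and the result of 1 list is not reported here. List genes named in fibroblasts were the 3 with the largest change per list among those with a mean of at least 10 CPM, and the genes most like the 9 were the 8 highest by r.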

Additional observations from a re-analysis of the deposited data

How the results depend on the processing

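The mural and fibroblast difference kept 8 of 9 calls under every alternative run, with 1873 to 2292 genes called when a library was left out; a library then alone in its group was assumed to vary like the rest. The counts called between injected and uninjected libraries were unstable. In fibroblasts (6 called) DESeq2 gave 157, no count filter 518, cells with no mural marker 0, non-dividing cells 3, and a left-out library 0 to 763. In macrophages (1 called) the counts were 14 with DESeq2, 125 with no filter, 3 with doublets kept, and 0 to 207 with a library left out. In keratinocytes (0 called) DESeq2 gave 39 and a left-out library 0 to 714. In neutrophils (0 called) DESeq2 gave 22, no filter 316, and a left-out library 0 to 1689. For the fibroblast and keratinocyte difference (0 called) DESeq2 gave 97, no filter 224, and a left-out library 0 to 259. Same-numbered libraries showed little shared deviation (correlation −0.09 in fibroblasts, −0.04 in macrophages, −0.13 in keratinocytes and −0.22 in neutrophils). With 2 libraries a group, these values cannot show whether the libraries were paired. With a replicate block 10, 29, 0 and 0 genes were called, in the same order of classes. The mural share difference was −10.3 to 0.232 percentage points with a library left out. Uncalled log2 values changed sign, and ranges below are over left-out libraries. In fibroblasts Cnn1 was −0.62 to 0.27, 0.23 by clusters, 0.21 in gated cells of the fibroblast clusters and 0.84 in non-dividing cells. In keratinocytes Acta2 was −0.29 to 1.07, Tpm1 was −0.37 to 0.053, Tpm2 was −0.34 to 0.20, Actn1 was −0.047 to 0.27, Cnn1 was −0.36 to 0.45, and Cnn2 was −0.13 to 0.78. In macrophages Tpm1 was −0.17 to 1.31 and −0.069 by clusters, Tpm2 was −0.21 to 0.59, and Actn1 was −0.077 to 0.20, −0.12 by clusters and −0.018 with doublets kept. In neutrophils Acta2 was −0.032 to 0.90. Between mural cells and fibroblasts Cnn2 was −0.34 to 1.16. In the class difference Cnn1 was −0.61 to 0.12, and Cdh11 was −1.90 to 0.70. The cause was not tested. The fits that added cells of both gates, kept only gated cells of the fibroblast clusters or used all 4 libraries for mural cells, and the Acta2 share with doublets kept, were chosen after seeing the data.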
